A study of Mus musculus with 30 samples.

Results

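The proteasome genes are the protein-coding mouse genes whose GENCODE symbol begins with Psma, Psmb, Psmc, Psmd, Psme, Psmf or Psmg followed by a number, and 49 of the 55401 genes in the count tables met this rule. They were measured by nuclear RNA-seq, the sequencing of RNA from isolated nuclei, in mouse embryonic stem (ES) cells from which SRCAP was removed. SRCAP is the ATPase of a chromatin remodeling complex that places the histone variant H2A.Z into nucleosomes. The series held 30 libraries in 15 conditions with 2 libraries each, described in the study as biological duplicates, in 4 count tables that were each normalized separately. SYAT cells are CGR8 ES cells in which both Srcap alleles carry YPet and an auxin-inducible degron (AID). They stably express the auxin receptor OsTir1 from the EF1a promoter. SYAT cells come from a single homozygous clone of the tagged alleles, given the receptor by lentivirus and sorted for loss of YPet under IAA. They were kept in auxinole, an auxin antagonist, as the control condition, or received the auxin IAA (indole-3-acetic acid, 500 µM) for 2, 4, 6 or 8 h. Parental CGR8 cells, without degron or receptor, were untreated or received IAA for 4 h. SYAT cells that also stably express mCherry fused to a mitotic degron were sorted in early G1 (EG1) or late G1 (LG1) by DNA content and mCherry intensity, after control treatment or 1 h of IAA. The wtSRCAP and cdSRCAP lines are SYAT cells in which doxycycline (1 µg/mL for 24 h) drives SRCAP-mCherry, in its wild-type or its catalytically dead form, from the TRE3G promoter, and both received control treatment or IAA for 4 h. Each line is a single clone, and its cells were sorted for high mCherry, at similar levels in both lines, before RNA was taken. All cells had been kept in serum and LIF medium for the days before collection, and every SYAT-derived group, its controls included, carries the degron and the receptor.

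The 26S proteasome degrades proteins that carry ubiquitin. Its 20S core is a stack of alpha and beta rings whose beta 5, beta 1 and beta 2 subunits (Psmb5, Psmb6 and Psmb7) cut proteins, and its 19S cap holds a ring of ATPases (Psmc genes), which unfold substrates, and non-ATPase subunits (Psmd genes), which bind and remove ubiquitin. In cells exposed to interferon the cutting subunits can be exchanged for Psmb8, Psmb9 and Psmb10, which form the immunoproteasome, dedicated chaperones assemble the particle, and Psme proteins cap the core in place of the 19S. ES cells keep high proteasome activity, and the auxin system itself relies on it, since OsTir1 directs ubiquitin onto the AID tag. By role, the 49 genes comprised 7 alpha ring genes, 7 constitutive beta ring genes, 5 tissue-specific or inducible 20S genes, 6 19S ATPases, 11 19S non-ATPase subunits, 7 assembly chaperones and 6 activator or inhibitor genes. They lay on 16 chromosomes, and 23 of them overlapped another annotated gene.

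Exon counts summed to between 12236493 and 60214521 per library, and the 49 genes took between 0.317% and 0.775% of them. Markers of ES cells summed to at least 1918 CPM (exon counts scaled to library size) in every library those of leukocytes to at most 11.5 CPM, and those of fibroblasts to between 6.22 and 52.2 CPM. The last were at 6.22 and 7.40 CPM in wtSRCAP control and 13.3 and 13.6 after IAA, and their part in the results was not tested. Srcap mRNA, which the degron does not act on and which therefore does not check the depletion, stood between 39.9 and 60.2 CPM in the SYAT time course. Libraries with the same condition differed in the proteasome genes as a set. In the sorted cells, 45 of the 48 genes tested were higher in replicate 2 than in replicate 1 in all 4 conditions, which held for 28.2% of all genes, and in the wtSRCAP and cdSRCAP table for 37 of 48, against 23.4% of all genes. In the SYAT time course the median log2 ratio of replicate 2 to replicate 1 over the 48 genes was -0.05 in control, -0.04 at 2 h and -0.07 at 4 h, but 0.28 at 6 h and -0.27 at 8 h. The 49 genes summed to 7151 CPM in replicate 2 at 6 h, against 5463 (replicate 2 at 8 h) to 6542 (replicate 1 at 8 h) in the other 9 libraries. Replicate 2 at 6 h also had the lowest scaling factor of its table (0.854) and the highest sum of ES cell markers (3914 CPM), and the part of these differences in the results was not tested.

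The core proteasome was expressed at a high level. Per kilobase of annotated exon, 45 of the 49 genes lay above the median of all genes tested in the SYAT control libraries (2.52 CPM per kb) and 33 lay above their 90th percentile (25.9). The highest levels per kb were those of Psmc5, an ATPase, at 148 ± 2.4 (SD, n = 2), and Psmb6, the beta 1 subunit, at 142 ± 5.6, which did not differ beyond their spread. Per kb the 3 cutting subunits were unequal, with Psmb5 at 76.2 ± 5.7 and Psmb7 at 17.3 ± 1.3. Their annotated exons cover 899 and 3421 bases. Before division by length Psmb5 had 72.2 and 64.9 CPM and Psmb7 55.9 and 62.3, so the gap per kb mostly reflects the annotated lengths. Psmd14, the subunit that removes ubiquitin chains, stood at 29.9 ± 2.0. By role, the median was highest for the ATPases, at 84.1 CPM per kb, followed by the beta ring (52.2), the 19S non-ATPase subunits (44.1), the alpha ring (41.5), the activators and inhibitor (30.8), the assembly chaperones (8.35) and the tissue-specific or inducible 20S genes (1.37).

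Within that last group the levels spanned the widest range. Psmb10, the inducible counterpart of Psmb7, stood at 40.1 ± 11.9 CPM per kb, above Psmb7 itself. Before division by length the 2 genes overlapped, with 82.7 and 54.0 CPM of Psmb10 and 55.9 and 62.3 of Psmb7. Psmb8 was at 2.24 ± 1.28, Psma8, an alpha subunit of the testis, at 1.37 ± 0.19, and Psmb9 at 0.678 ± 0.097. Psmb11, the thymus subunit, was near 0 (0.019 CPM per kb) and was the only member that did not pass the filter on low exon counts in any table. In CGR8 control cells, scaled separately, 33 of the 49 genes likewise lay above the 90th percentile.

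**Figure D1:**
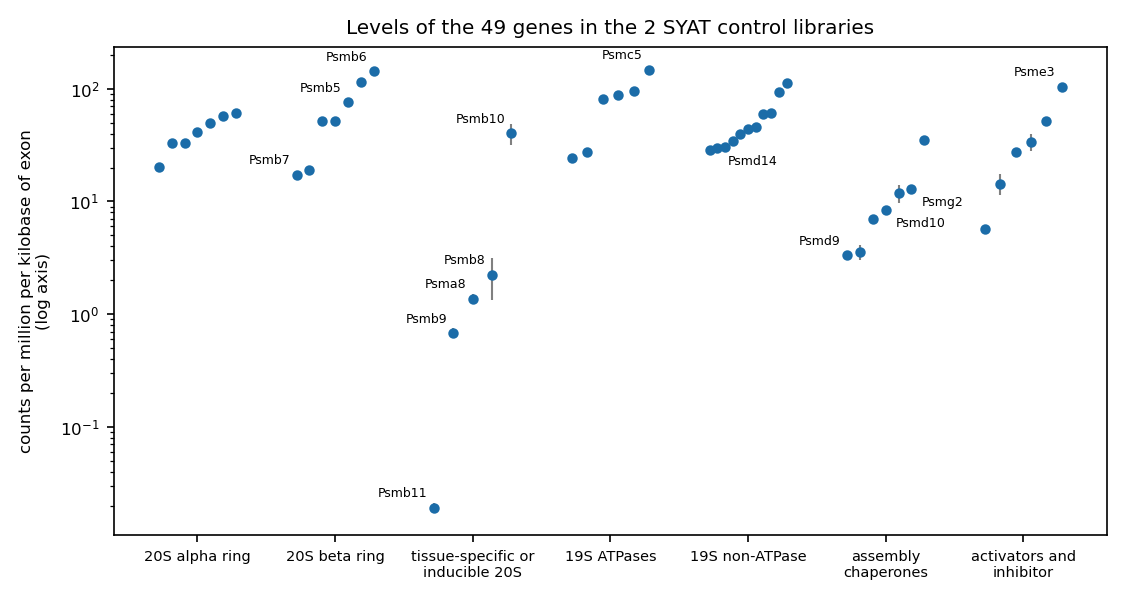
Level of each of the 49 genes in the 2 SYAT control libraries, in CPM per kilobase of exon on a log axis, grouped by role. Points give the mean and bars span the 2 libraries. Core 20S and 19S genes sit between 17.3 and 148, whereas the tissue-specific or inducible 20S genes range from 0.019 (Psmb11) to 40.1 (Psmb10).

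RefSeq promoter windows (GRCm38.p6, 250 bases before to 50 after the annotated start) were matched for 41 of the 49 genes. The 150 bases before the start are shown for 6 of them, the catalytic subunits Psmb5 and Psmb6, an ATPase (Psmc2) and a 19S non-ATPase subunit (Psmd12) with the motif whose share exceeded that of all promoters by the most, and Psmd10 and Psmb9, which lay among the largest differences described further on. Capitals mark matches to the motifs searched on both strands, TGACNNNGC (the core of the antioxidant response element) in Psmb5 and Psmb6, CCGGAAG (an ETS site) in Psmc2 and Psmd12, and CCAAT in Psmc2, Psmd10 and Psmb9.
Psmb5, chr14:54617996-54618145, minus strand: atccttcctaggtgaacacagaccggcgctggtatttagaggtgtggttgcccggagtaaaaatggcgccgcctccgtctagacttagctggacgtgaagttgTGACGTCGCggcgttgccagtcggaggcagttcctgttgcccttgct
Psmb6, chr11:70525207-70525356, plus strand: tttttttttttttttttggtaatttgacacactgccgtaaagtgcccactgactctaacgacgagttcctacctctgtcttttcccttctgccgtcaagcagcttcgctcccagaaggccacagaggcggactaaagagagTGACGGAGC
Psmc2, chr5:21785125-21785274, plus strand: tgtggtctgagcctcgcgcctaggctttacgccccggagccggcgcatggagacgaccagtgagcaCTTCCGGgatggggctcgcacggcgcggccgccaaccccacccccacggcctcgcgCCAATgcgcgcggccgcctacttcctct
Psmd12, chr11:107479378-107479527, plus strand: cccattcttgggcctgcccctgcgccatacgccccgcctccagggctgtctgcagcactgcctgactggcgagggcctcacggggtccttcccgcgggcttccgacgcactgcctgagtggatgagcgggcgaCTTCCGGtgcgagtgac
Psmd10, chrX:140956712-140956861, minus strand: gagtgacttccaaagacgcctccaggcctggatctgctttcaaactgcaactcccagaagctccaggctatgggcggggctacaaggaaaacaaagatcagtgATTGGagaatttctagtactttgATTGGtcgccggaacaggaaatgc
Psmb9, chr17:34187331-34187480, minus strand: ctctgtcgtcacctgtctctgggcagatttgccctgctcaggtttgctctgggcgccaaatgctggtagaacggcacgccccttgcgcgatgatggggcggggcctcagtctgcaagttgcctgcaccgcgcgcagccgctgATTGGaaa

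Over the whole 300-base windows, CCGGAAG occurred in 13 of 41 proteasome promoters (31.7%) and in 8.86% of all 32817 promoters. It lay in 6 of 9 19S non-ATPase genes and 3 of 5 ATPase genes with a window, including Psmd2, Psmd4, Psmd6, Psmd11, Psmd12, Psmc1, Psmc2 and Psmc6. None of the 15 20S genes with a window held it. TGACNNNGC occurred in 6 windows (14.6%, against 12.4% of all promoters), those of Psmb5, Psmb6, Psmc6, Psmd12, Psmd9 and Psme4. CCAAT occurred in 34.1% against 37.4%, TATAAA in 9.76% against 13.6%, GCATGCGC (the core of the nuclear respiratory factor 1 motif) in 7.32% against 2.71% and CAAGATGGC (YY1) in none against 1.24%. Motif matches describe these windows only, since binding was not measured here. The RefSeq start of Psmd9 lies 58777 bases from the 5' end of its GENCODE gene. For Psmd5, Psmb11 and Psmf1 the distance is 4006, 3877 and 2876 bases.

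The SYAT time course addresses how transcript levels respond as SRCAP is lost. Core proteasome genes lay near the control level at 2, 4 and 8 h and were spread more widely at 6 h. No proteasome gene passed |log2FC| > 0.5 and an adjusted p value < 0.05 (edgeR quasi-likelihood test, Benjamini-Hochberg over all genes) at 2, 4, 6 or 8 h, and DESeq2 with shrinkage also called 0. Of all 19205 genes tested, 0% passed at 2 h and at 4 h, 0.0677% at 6 h and 0.00521% at 8 h. At an unadjusted p under 0.05, no member stood out at 2 or 4 h, Psmb10 (higher, as were 7.93% of all genes) and Psmg2 (lower, 8.21%) did at 6 h, and Psmg2 and Psmd10 (both lower, 8.44%) did at 8 h. The median log2 fold change of the 48 genes was 0.02, 0.02, 0.17 and 0.02 at 2, 4, 6 and 8 h, with a median standard error of 0.16, and 44, 43, 29 and 38 genes lay within 0.25 of 0. Between the 2 control and the 2 treated libraries there was no overlap, with the treated ones higher, for 10 genes at 2 h (18.6% of all genes), 6 at 4 h (21.7%), 15 at 6 h (21.5%) and 4 at 8 h (20.9%), and with the treated ones lower for 4 (21%), 6 (24.1%), 3 (22.2%) and 8 (24%). All 4 comparisons share the same control libraries. In such bulk samples, less RNA per cell and fewer cells that express a gene cannot be told apart.

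**Figure D2:**
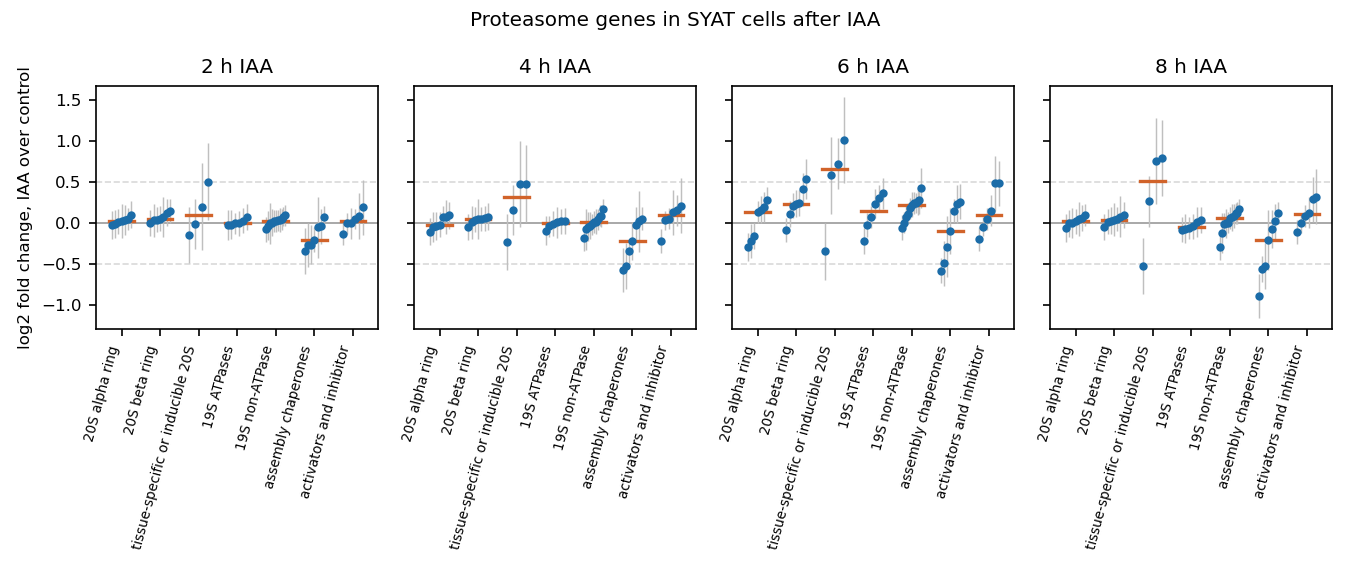
Log2 fold change of each proteasome gene in SYAT cells after 2, 4, 6 and 8 h of IAA against control (2 libraries each), by role, with bars for the standard error, a line for the median of each role and dashed lines at the fold change threshold of 0.5. Core 20S and 19S genes lie around 0 at 2, 4 and 8 h, and the assembly chaperones and the inducible subunits hold the lowest and highest values, none of which passed the adjusted threshold.

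Among the 20S genes, the 7 alpha ring genes lay between -0.11 and 0.09 on the log2 scale at 4 h and between -0.06 and 0.10 at 8 h. The 7 beta ring genes lay between -0.05 and 0.08 at 4 h and between -0.05 and 0.10 at 8 h. At 6 h both sets spread out, from -0.30 to 0.28 and from -0.09 to 0.53. Psmb5, the beta 5 subunit with chymotrypsin-like activity, had 72.2 and 64.9 CPM in the control libraries, 72.2 and 71.9 at 2 h, 75 and 66.6 at 4 h, 71.5 and 127 at 6 h, and 84.3 and 60.4 at 8 h. Psmb6, with caspase-like activity, had 274 and 259 CPM in control and 271 and 437 at 6 h. Psmb7, with trypsin-like activity, had 55.9 and 62.3 CPM in control and 60.2 and 51.1 at 6 h. Replicate 2 at 6 h stood above all other libraries for Psmb5 and Psmb6, whereas Psmb7 had its lowest value there. The 6 h fold changes of Psmb5, Psmb6 and Psmb7 were 0.53 ± 0.25 (SE; adjusted p = 0.319 by edgeR), 0.41 ± 0.20 (adjusted p = 0.350) and -0.09 ± 0.15 (adjusted p = 0.810).

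The 19S genes showed the same dependence on that library. The 6 ATPases lay between -0.10 and 0.02 at 4 h, between -0.22 and 0.36 at 6 h and between -0.08 and 0.03 at 8 h, and the 11 non-ATPase subunits between -0.19 and 0.17, -0.06 and 0.43, and -0.30 and 0.17. Psmd14 had 88.2 and 80.2 CPM in control, 83.2 and 80.9 at 4 h, 84.1 and 118 at 6 h, and 91.9 and 85.0 at 8 h, and its 6 h difference of 0.27 ± 0.16 did not pass (adjusted p = 0.452 by edgeR). Psmd13, another 19S subunit, had 107 and 97.8 CPM in control and 93.5 and 182 at 6 h, and was chosen for mention after its values were seen. Compared library by library within a replicate number, the median log2 ratio of 6 h to control over the 48 genes was -0.00 in replicate 1 and 0.32 in replicate 2, and that of 8 h to control was 0.13 and -0.10. Without replicate 1 at 6 h, 8 genes passed upwards (Psmc3, Psmc4, Psmc5, Psmd4, Psmd13, Psmb5, Psmb6 and Psmg1; 7.91% of all genes) and 2 passed downwards (Psmg2 and Psma1; 7.52%), with the remaining 6 h library assumed to vary like the other groups, and without replicate 2 at 6 h 0 did (0% of all genes).

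The assembly chaperones held the lowest values of the time course. Of the 7, 6 were below control at 2 h, 5 at 4 h, 4 at 6 h and 5 at 8 h, with medians of -0.20, -0.22, -0.10 and -0.21. Psmg2, which with Psmg1 guides the alpha ring into place, had 21.7 and 23.1 CPM in control, 18.3 and 20.5 at 2 h, 17.2 and 17.9 at 4 h, 14.7 and 15.2 at 6 h, and 15.6 and 14.6 at 8 h. All 8 treated libraries lay below both controls, and those at 6 and 8 h lay below those at 2 and 4 h. At single times 21% to 24.1% of all genes were lower without overlap, and all times share these controls. The share of all genes with all 8 treated libraries below control, or with this order of times, was not counted. The pattern therefore does not set Psmg2 apart. The log2 fold change of Psmg2 was -0.20 at 2 h, -0.35 ± 0.16 at 4 h, -0.58 ± 0.16 at 6 h (adjusted p = 0.130 by edgeR) and -0.57 ± 0.16 at 8 h (adjusted p = 0.154).

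Psmd10 (gankyrin), a chaperone of the 19S base on chrX:140948429-140956728 (minus strand, GRCm38), had 12.4 and 12.2 CPM in control, 11.9 and 8.50 at 2 h, 8.78 and 7.71 at 4 h, 7.49 and 9.95 at 6 h, and 8.08 and 5.18 at 8 h. Every treated library lay below both controls, although the 2 libraries of a time differed by more than the controls did. The single-time shares given for Psmg2, the uncounted share over all 8 libraries and the shared controls apply here too. Its log2 fold change was -0.57 ± 0.27 at 4 h (adjusted p = 0.576 by edgeR), -0.49 ± 0.27 at 6 h (adjusted p = 0.394) and -0.89 ± 0.27 at 8 h (adjusted p = 0.190). Psmd9, a further base chaperone on chr5:123169413-123250131 (plus strand), whose annotated span overlaps Hpd and 2 other genes on the opposite strand, had 24.2 and 23.8 CPM in control, 21.0 and 17.0 at 2 h, 17.9 and 15.5 at 4 h, 14.7 and 30.1 at 6 h, and 16.6 and 16.8 at 8 h. The libraries at 2, 4 and 8 h lay below control and those at 6 h lay on both sides of it, and the 8 h difference was -0.53 ± 0.28 (adjusted p = 0.447 by edgeR), after -0.34 at 2 h and -0.53 at 4 h. Psmg3, which works with Psmg4 on the alpha ring, was at -0.26 ± 0.23 at 2 h (adjusted p = 1.00 by edgeR), with 11.8 and 8.76 CPM in control and 7.80 and 9.26 at 2 h, which overlapped.

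**Figure D3:**
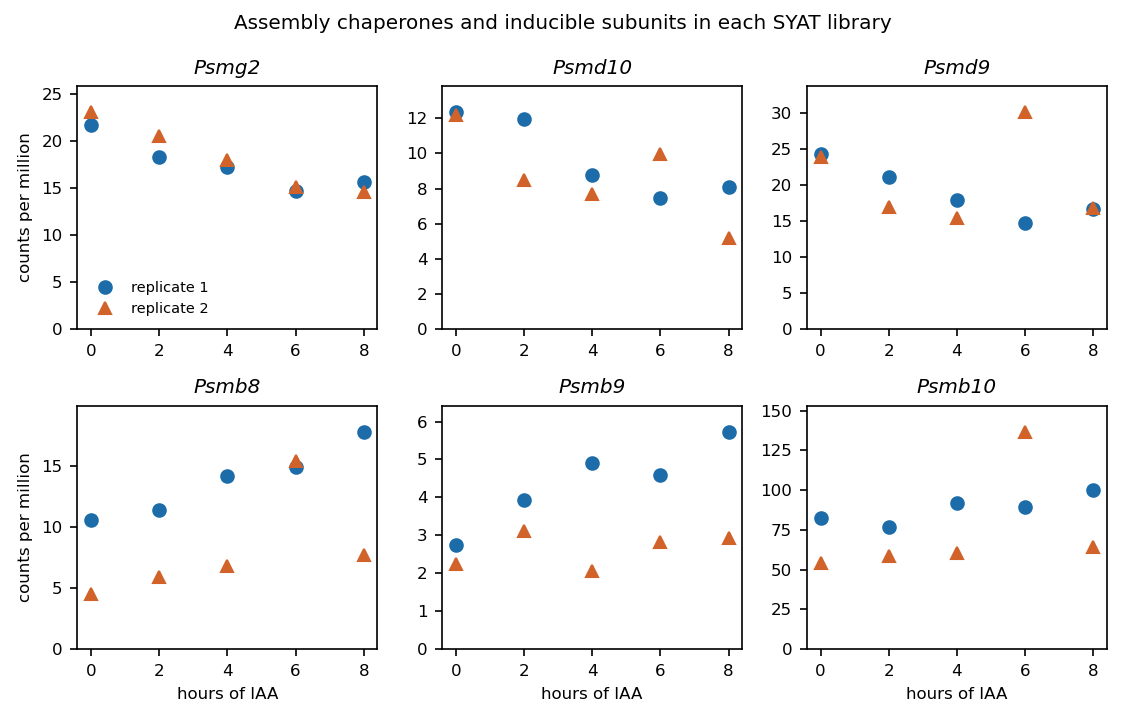
CPM of 3 assembly chaperones (top) and 3 inducible subunits (bottom) in each SYAT library against hours of IAA, with the control at 0 and 1 marker per library, shaped by replicate number. Psmg2 and Psmd10 lie below both controls in all 8 treated libraries, and the share of all genes that do so was not counted. Replicate 1 is the higher of each pair for Psmb8 except at 6 h (14.9 and 15.4).

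The inducible subunits held the highest values, and their libraries were spread widely. Psmb8 (chr17:34197721-34201454, plus strand), which replaces Psmb5, had 10.6 and 4.50 CPM in control, 11.4 and 5.89 at 2 h, 14.2 and 6.79 at 4 h, 14.9 and 15.4 at 6 h, and 17.8 and 7.68 at 8 h. Control and treated libraries overlapped at 2, 4 and 8 h. Its log2 fold changes were 0.20, 0.47, 1.01 ± 0.53 (adjusted p = 0.372 by edgeR) and 0.76 ± 0.52 (adjusted p = 0.574). Psmb9 (chr17:34181987-34187764, minus strand), which replaces Psmb6 and shares its locus with Tap1 on the opposite strand, had 2.73 and 2.23 CPM in control, 3.93 and 3.12 at 2 h, 4.90 and 2.05 at 4 h, 4.58 and 2.82 at 6 h, and 5.73 and 2.92 at 8 h. Its differences of 0.50, 0.48, 0.58 and 0.80 had standard errors of 0.47, and its treated libraries lay above both controls at 2, 6 and 8 h. Psmb10 (chr8:105935735-105938444, minus strand) had 82.7 and 54.0 CPM in control, 91.9 and 60.5 at 4 h, 89.2 and 137 at 6 h, and 100 and 63.9 at 8 h, and its 6 h value of 0.72 ± 0.31 did not pass (adjusted p = 0.291 by edgeR). Replicate 1 was the higher library in all 5 conditions for Psmb9, and in every condition except 6 h for Psmb8 and Psmb10. Without the filter on low counts, edgeR called Psmb8 and Psmb10 as higher at 6 h and no other member. The share of all genes called in that setting is not given, so these calls do not set the members apart.

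Interferon response genes (9 of 10 tested) summed to 128 and 177 CPM in the control libraries, 176 to 257 at 4 h, 175 to 253 at 6 h and 168 to 264 at 8 h. None of the 9 passed the threshold at any time, and 2 of them were higher at an unadjusted p under 0.05 at 4, 6 and 8 h, as were 3.09%, 7.93% and 5.13% of all genes. The 8 leukocyte markers summed to between 5.22 and 9.58 CPM over the time course. The part of either in the values of Psmb8, Psmb9 and Psmb10 was not tested. Psma8 had 3.09 and 3.76 CPM in control and 2.15 and 2.59 at 8 h, which was -0.53 ± 0.34 (adjusted p = 0.548 by edgeR), and stood at -0.34 ± 0.35 at 6 h.

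The activators Psme1 and Psme2 (the interferon-inducible PA28 alpha and beta), Psme3 (nuclear PA28 gamma), Psme4 (PA200) and the inhibitor Psmf1 (PI31) lay, together with the intronless copy Psme2b, between -0.22 and 0.21 at 4 h and between -0.11 and 0.32 at 8 h. Psme2b had 14.6 and 9.46 CPM in control and 19.6 and 10.4 at 8 h, a difference of 0.32 ± 0.33 (adjusted p = 0.730 by edgeR) after 0.19 at 2 h and 0.21 at 4 h, and reads that it shares with Psme2 could have been assigned to either gene. Psmf1 was lower than control without overlap at 4, 6 and 8 h, as were 24.1%, 22.2% and 24% of all genes. It had 38.87 and 34.12 CPM in control, 32.5 and 30.1 at 4 h, 33.3 and 30.3 at 6 h, and 33.48 and 34.07 at 8 h. The difference was -0.22 at 4 h and -0.20 at 6 h.

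Genes of the same pathway outside the naming rule were counted from a list of 29, all of which were tested. It comprised 11 other subunits and factors (such as Adrm1, Usp14 and Pomp), 4 transcription factors and their activators, 8 shuttle and segregase genes and 6 ubiquitin and E1 genes. None of the 29 passed in any exon comparison. Their median log2 fold change was 0.06 at 2 h, 0.08 at 4 h, 0.11 at 6 h and 0.07 at 8 h. At an unadjusted p under 0.05, Ngly1, which deglycosylates the proteasome transcription factor Nfe2l1, was the only one of the 29 at 4 h and at 8 h, lower in both (-1.10 and -0.87), as were 6% and 8.44% of all genes. At 6 h 4 of the 29 were higher (7.93% of all genes) and Ngly1 was lower (-0.66, as were 8.21% of all genes). In CGR8 cells after 4 h of IAA, 2 of the 29 were higher at that p and 4 were lower. Of all 20250 genes tested there, 1020 were higher and 835 lower.

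The effect of IAA itself is addressed by CGR8 cells. No proteasome gene passed after 4 h of IAA by edgeR or by DESeq2 with shrinkage (0.00988% of 20250 genes passed by edgeR). The summed level was 8270 and 6829 CPM in the control libraries and 7327 and 7247 after IAA, so that the treated libraries lay between the controls, and the median log2 fold change was -0.04. At an unadjusted p under 0.05 (5.04% of all genes, higher), 3 members were higher, the alpha ring genes Psma4 and Psma1 and the 19S subunit Psmd12. Psma4 had 95.7 and 93.8 CPM in control and 118 and 135 after IAA (0.42 ± 0.13, adjusted p = 0.540 by edgeR). Psma1 had 114 and 115 CPM and then 135 and 154 (0.33 ± 0.13, adjusted p = 0.540). Groups did not overlap, with IAA higher, for 10 genes (21.6% of all genes) and, with IAA lower, for 6 (20.6%). The lowest values were those of Psmg3 (-0.51 ± 0.23), Psmb10 (-0.36 ± 0.20) and Psme2b (-0.35 ± 0.19), and Psmb9, with 1.78 and 2.10 CPM in control and 2.93 and 2.60 after IAA, had the highest (0.51 ± 0.32). Psmb8 was near 2 CPM in all 4 libraries, between 1.77 and 2.13. Interferon response genes summed to 78.3 and 82.6 CPM in the control libraries and to 91.7 and 96.9 after IAA. Of the 9 tested, 0 passed, and their part in these values was not tested. Psmg2 had 22.4 and 17.4 CPM in control and 20.8 and 27.1 after IAA. Psmd10 had 25 and 21.3 and then 21.5 and 22.8 CPM, and both genes overlapped. Psmd9 had 42.3 and 29.4 CPM in control and 28.8 and 27.5 after IAA, and was among those lower without overlap. Control replicate 1 stood above the other 3 libraries for Psmb5 (138 against 89.3 to 97.0 CPM) and Psmb6 (605 against 386 to 419), and without control replicate 2 9 genes passed as lower after IAA (Psmb5, Psmb6, Psmb10, Psmc3, Psmd9, Psmd11, Psmd13, Psmg1 and Psmg3; 4.11% of all genes) and 0 as higher (6.79%).

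In the sorted cells, 1 h of IAA covered mitosis and its exit for EG1 cells and G1 for LG1 cells. No proteasome gene passed in EG1, in LG1, between LG1 and EG1 in control or after IAA, or in the difference of the responses, by edgeR or by DESeq2 with shrinkage, and 0% of the 21020 genes tested passed in each by edgeR. No member had an unadjusted p under 0.05 in any of the 5, and 0 passed the looser threshold of |log2FC| > 0.25 with that p in EG1 (0.19% of all genes higher and 1.03% lower) or in LG1 (0.285% and 0.733%). All 48 genes lay between -0.24 and 0.19 in EG1, where the median was 0.06, and between -0.25 and 0.31 in LG1, where it was 0.05, with a median standard error of 0.26. In EG1 the highest differences were those of Psmb9 (0.19), Psmb8 (0.18) and Psma8 (0.16) and the lowest those of Psmg3 (-0.24), Psmf1 (-0.12) and the ATPase Psmc6 (-0.07). In LG1 they were Psmb10 (0.31), Psmb8 (0.15) and the 19S subunit Psmd3 (0.14), against Psmd10 (-0.25), Psmd9 (-0.22) and Psmg3 (-0.19). LG1 against EG1 ranged from -0.32 (Psmb10), -0.23 (Psmb8) and -0.19 (Psmg4) to 0.09 (the 19S subunit Psmd8), 0.17 (Psme1) and 0.21 (Psma8) in control. After IAA it ranged from -0.26 (Psmb8), -0.25 (Psmg4) and -0.25 (Psmd9) to 0.07 (the 19S subunit Psmd1), 0.10 (Psme4) and 0.14 (Psmf1). The response in LG1 minus that in EG1 was 0.25 for Psmb10, 0.15 for Psmf1, 0.10 for Psmg2, -0.23 for Psmd9, -0.26 for Psmd10 and -0.26 for Psma8, with standard errors of 0.33 to 0.74. Libraries differed by replicate number instead. Psmb6 had 184 and 266 CPM in EG1 control, 220 and 259 in EG1 after IAA, 176 and 246 in LG1 control, and 183 and 265 in LG1 after IAA, each time with replicate 1 first. Psmb10 had 18.8 and 38.6, 20.2 and 39.7, 15.7 and 30.4, and 18.0 and 39.2 CPM in the same order. Replicate 2 was thus the higher for both genes in all 4 conditions, and Psma8, Psmb9 and Psmg4 were the exceptions to this pattern.

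**Figure D4:**
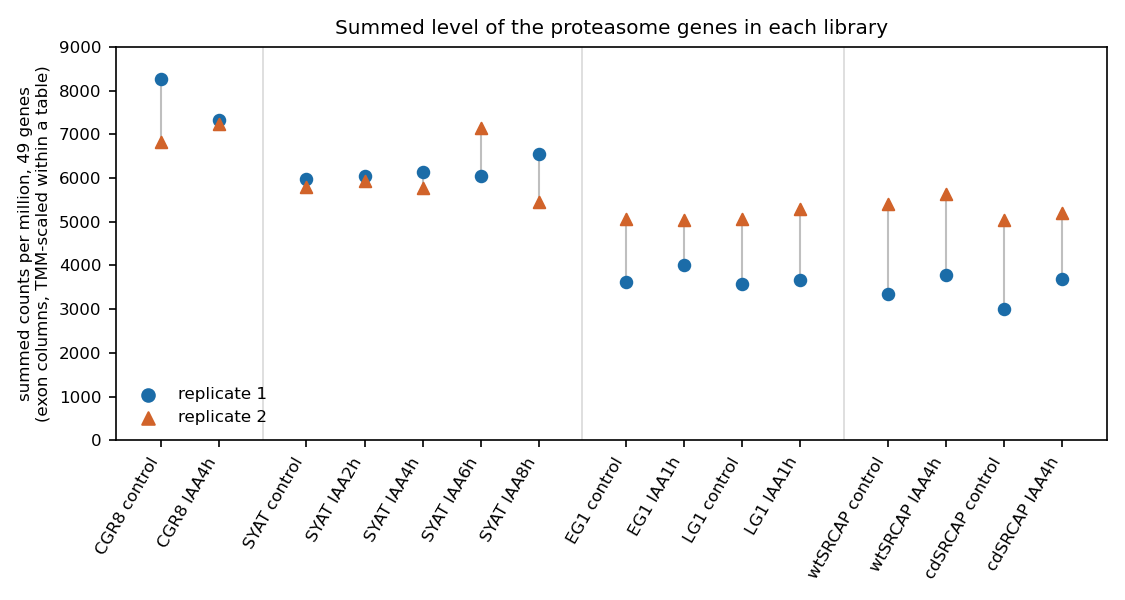
Summed CPM of the 49 genes in each of the 30 libraries, with 1 marker per library shaped by replicate number and lines separating the 4 tables, which were scaled separately. Replicate 2 lies above replicate 1 in all 8 conditions of the sorted cells and of the wtSRCAP and cdSRCAP lines, whereas in SYAT cells it is higher at 6 h (7151 against 6039) and lower at 8 h (5463 against 6542).

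Within a replicate number, the median log2 ratio of IAA to control was 0.14 in replicate 1 and -0.01 in replicate 2 of EG1, and 0.02 and 0.06 in LG1. The groups overlapped for nearly every member. In EG1 the exception was Psmg3, lower after IAA (13.4% of all genes were lower and 7.98% higher without overlap), with 10.0 and 10.1 CPM in control and 7.83 and 9.19 after IAA (-0.24 ± 0.22, adjusted p = 1.00 by edgeR). In LG1 no member was without overlap (7.83% of all genes higher, 10.4% lower). Between phases, no member was without overlap in control (10.7% of all genes higher in LG1, 11.7% lower), and after IAA the exception was Psmg4, lower in LG1 (11.8% of all genes lower, 11.9% higher), with 5.23 and 5.22 CPM in EG1 and 4.12 and 4.68 in LG1. Psmg2 and Psmd10, the lowest chaperones of the time course, overlapped between control and IAA in both phases, with 13.6 and 19.6 CPM of Psmg2 in EG1 control and 15.7 and 18.2 after IAA, and 13.6 and 18.1 in LG1 control and 15.6 and 19.4 after IAA.

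The wtSRCAP and cdSRCAP lines ask which responses depend on the catalytic activity. Since each line is a single clone, a difference between the lines cannot be told apart from a difference between clones. No proteasome gene passed in wtSRCAP cells (0.00523% of 19111 genes did), in cdSRCAP cells (0%), between the lines in control (0%) or after IAA (0.00523%), or in the difference of their responses (0%), by edgeR or, for the members, by DESeq2 with shrinkage. The median log2 fold change after IAA was 0.05 in wtSRCAP and 0.14 in cdSRCAP cells, and cdSRCAP against wtSRCAP was -0.12 in control and -0.06 after IAA, with a median standard error of 0.40. The catalytic genes followed the replicate number. Psmb5 had 50.5 and 90.0 CPM in wtSRCAP control, 65.8 and 97.6 after IAA, 48.4 and 81.5 in cdSRCAP control, and 53.5 and 81.0 after IAA. Psmb6 had 115 and 179, 170 and 191, 96.2 and 174, and 122 and 180 CPM. The lowest library of each condition was replicate 1, and the treated and control libraries of a line overlapped for both genes.

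Only Psma8 had an unadjusted p under 0.05, lower after IAA in wtSRCAP cells (4.48% of all genes were lower at that p), with 6.02 and 6.99 CPM in control and 3.02 and 4.15 after IAA (-0.84 ± 0.36, adjusted p = 0.666 by edgeR). In cdSRCAP cells Psma8 had 7.91 and 5.19 CPM in control and 4.13 and 5.11 after IAA (-0.49 ± 0.35), and the difference between the lines was 0.35 ± 0.50 (adjusted p = 1.00). After IAA 4 genes were higher without overlap (14.9% of all genes) and 3 lower (19.5%) in wtSRCAP cells, and 2 higher (18.7%) and 3 lower (19%) in cdSRCAP cells. Between the lines the counts were 2 higher (15.7%) and 1 lower (14.1%) in control, and 1 higher (19.1%) and 7 lower (14.6%) after IAA, cdSRCAP against wtSRCAP. Psmd10 was again among the lowest values, with 5.31 and 9.13 CPM in wtSRCAP control, 4.29 and 6.57 after IAA, 4.90 and 11 in cdSRCAP control, and 2.77 and 7.27 after IAA. These overlapped in both lines, and the differences were -0.40 ± 0.55 (adjusted p = 0.929 by edgeR) and -0.67 ± 0.54 (adjusted p = 0.996). Psmg2 was also low in wtSRCAP cells after IAA (-0.39 ± 0.41) and Psmg3 in cdSRCAP cells (-0.49 ± 0.31). The highest differences after IAA were those of Psmb9 (0.39 ± 0.60) and Psmd3 (0.36 ± 0.22) in wtSRCAP cells, and of Psmb8 (0.97 ± 1.19), Psmd7 (0.31 ± 0.30) and Psma3 (0.31 ± 0.44) in cdSRCAP cells. The response in cdSRCAP minus that in wtSRCAP cells was 0.33 ± 0.66 for Psmc6, 0.31 ± 0.62 for Psma3, -0.49 ± 0.55 for Psme2b and -0.69 ± 0.82 for Psmb9.

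Psmb8 was near the limit of detection in both lines. Its exon counts were 2 and 3 in wtSRCAP control, 0 and 26 after IAA, 2 and 13 in cdSRCAP control, and 16 and 12 after IAA, so that no fold change is given against the wtSRCAP control. Psmb9 had 1.10 and 0.772 CPM in wtSRCAP control and 2.41 and 1.78 in cdSRCAP control, a difference of 1.16 ± 0.58 between the lines (adjusted p = 1.00 by edgeR), and 1.46 and 1.02 against 2.35 and 1.03 after IAA (0.47 ± 0.58). Psmb10 lay on the other side, with 16.4 and 31.3 CPM in wtSRCAP control and 13.9 and 19.7 in cdSRCAP control (-0.50 ± 0.33, adjusted p = 1.00 by edgeR). Psmg2 (-0.47 ± 0.41) and Psmc5 (-0.32 ± 0.56) were also low and Psme2b (0.19 ± 0.39) high in the cdSRCAP control. After IAA, cdSRCAP against wtSRCAP was 0.35 ± 0.36 for Psma8, 0.27 ± 1.15 for Psmb8, -0.31 ± 0.39 for Psme2b, -0.37 ± 0.33 for Psmb10 and -0.49 ± 0.32 for Psmg3. Of these, the libraries of the lines did not overlap for Psmb9 in control and for Psmb10, Psme2b and Psmg3 after IAA, and none passed the adjusted threshold. Interferon response genes summed to 54.0 to 59.6 CPM over the 4 control libraries of both lines and to 73.8 to 88.5 over the 4 treated ones, and 0 of the 8 tested passed.

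Intron columns were considered beside the exon columns, and their content differed between tables. In the SYAT and EG1 libraries the intron column also held exonic reads of many genes, since 53.1% and 44.7% of single-exon genes had intron counts there, against at most 0.10% elsewhere. Of the 48 members with enough exon counts, 33 in SYAT and 35 in EG1 had a ratio of intron to exon counts of at least 0.95. Others did not, such as Psma2, with 2433 exon and 1458 intron counts in SYAT control replicate 1. For the proteasome genes, the median ratio of intron to exon counts was 1.04 in SYAT and 1.09 in EG1, against 0.117 in LG1, 0.089 in the wtSRCAP and cdSRCAP lines and 0.048 in CGR8. Psmb6, whose introns are short, had 5413 exon and 5427 intron counts in SYAT control replicate 1, but 3608 and 11 in LG1 control replicate 1. Psmb9, Psmb10, Psmg3, Psmg4, Psme2b and Psmf1 had 0 intron counts in all 10 SYAT libraries.

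**Figure D5:**
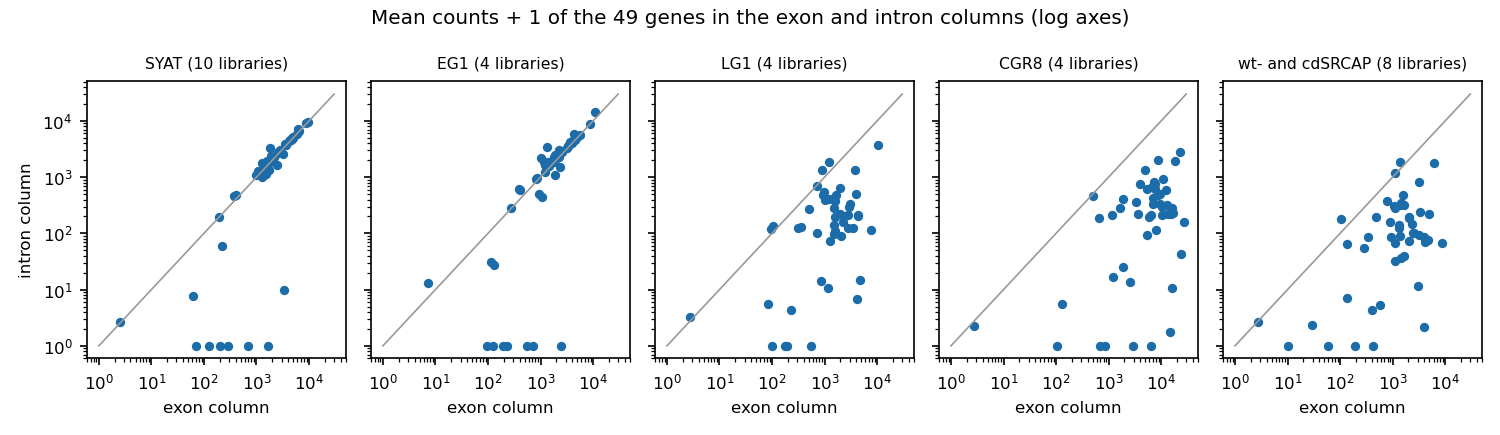
Mean intron count against mean exon count of each of the 49 genes (each plus 1, log axes) in the SYAT, EG1, LG1, CGR8, and wtSRCAP and cdSRCAP libraries, with the line of equality. In SYAT and EG1 most genes follow the line and some sit at 0 on the intron axis, and elsewhere nearly all lie below it, with median ratios of 0.117 or less.

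With these columns as deposited, no member passed in CGR8 (0.022% of 13634 genes did), at 2 and 4 h (0% of 14719), at 6 h (0.0136%) and 8 h (0.00679%) in SYAT, in EG1 (0.00573% of 17441), in LG1 (0%), in the difference of the EG1 and LG1 responses (0%), or in the 5 comparisons of the wtSRCAP and cdSRCAP lines (0.299%, 0.236%, 0.102%, 0.0157% and 0% of 12702). Psmg2 was again lower in SYAT, at -0.39 (4 h), -0.58 (6 h, adjusted p = 0.182 by edgeR) and -0.48 (8 h), but for this gene the intron counts (500 and 672 in control) exceeded the exon counts (428 and 559). With the exon column subtracted, a setting added once the columns' content was known, 32 of the members could be tested in SYAT and 0 passed at any time (0% of 10138 genes). Psmd9 then had 100 and 164 intronic counts in control and between 47 and 147 in the treated libraries, with -1.23 ± 0.33 at 2 h (adjusted p = 0.275 by edgeR), -1.08 ± 0.33 at 4 h, -0.73 ± 0.32 at 6 h and -0.81 ± 0.32 at 8 h. Psmg2 was then at -0.36, -0.67, -0.52 and -0.23, with an adjusted p of 0.435 at 4 h by edgeR. In CGR8 the highest intron difference was that of the 19S subunit Psmd6 (0.73 ± 0.29, adjusted p = 0.925 by edgeR) and the lowest that of Psme1 (-0.83 ± 1.16, adjusted p = 0.961). In LG1, Psmd6 (-0.64) and Psmf1 (-0.68) were lower at an unadjusted p under 0.05, as were 2.7% of all genes.

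Only LG1 against EG1 gave calls among the intron columns, and there the columns themselves differ. In control 7 members passed as higher in LG1 (26.4% of all genes) and 22 as lower (32.6%), and after IAA 8 (31.1%) and 29 (33.3%). With the exon column subtracted in EG1, 8 members passed as higher in control (17.6% of all genes) and 10 after IAA (18.4%), and 0 as lower (0.116% and 0.313%). All 8 in control (Psma2, Psma6, Psma7, Psma8, Psmc1, Psme2, Psmf1 and Psmg4) and the same 8 of the 10 after IAA had 0 counts in both EG1 libraries, since their EG1 intron column did not exceed the exon column, so that these calls compare LG1 with a floor set by the subtraction. The other 2 after IAA were Psmb2 and Psmb7. Over the 41 members tested both ways, the median was -0.84 as deposited and 0.13 after subtraction in control, and -1.32 and 0.01 after IAA.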

How the data were processed

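Nuclear RNA was sequenced by the authors in 30 mouse libraries with a directional kit. Per the labels and the study's methods, the authors aligned reads to mm10 with STAR, used SAMtools 1.10 and Picard, and counted them per gene with featureCounts on GENCODE vM25. The deposited count tables hold whole-number, unnormalized counts with an exon and an intron column per library; further tables of the authors' comparisons (fold changes and p-values) were not used. Conditions and replicate numbers came from the labels.

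Genes were kept with filterByExpr (minimum count 10, minimum total 15) and scaled by TMM. They were tested within each table with the edgeR 4.0.16 quasi-likelihood test (R 4.3.3), adjusting p-values over all genes tested. Having 2 libraries per condition limits precision. The p-values rest only on the spread between libraries of a condition, estimated over all conditions of a table with information shared across genes. Tests were checked on simulated counts drawn without a shift between replicate numbers, so that check does not cover the shifts described above. Levels per kb used exon lengths and coordinates of GENCODE vM21 (GRCm38), and 48 of the 49 identifiers had the same version there. Genes named with values were the catalytic and inducible subunits, Psmd14, and the 3 highest and 3 lowest fold changes of each exon comparison. The members, gene lists and tests were chosen with earlier results of these data known. No 2 libraries of a condition agreed within sampling noise (chi-square per gene 23.7 to 235). Alternatives were RLE scaling, no filter, DESeq2 1.42.0 with shrinkage, a replicate block, only the conditions compared, and each library left out.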

Additional observations from a re-analysis of the deposited data

How the results depend on the processing

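Most results kept their direction and their side of the threshold under every alternative tried. Without the filter on low counts, 2 members passed at 6 h in the SYAT exon columns (Psmb8 and Psmb10, higher), and 1 member (Psma3, whose intron counts were 0 in every replicate 2) passed in each of the 5 intron comparisons of the wtSRCAP and cdSRCAP table. With the exon column subtracted from the intron column, chosen after seeing the data, 8 members passed for LG1 against EG1 in control and 10 after IAA, all higher, of which 8 each time had 0 counts in both EG1 libraries after the subtraction. RLE scaling, DESeq2 with shrinkage and fits of only the conditions compared moved no count of calls. The share of all genes passing is not given without the filter, with a replicate block or for intron columns with 1 library left out. Calls in those settings therefore do not set the members apart. Other causes were not tested. Depth limits Psmb8 in the wtSRCAP and cdSRCAP table and most intron counts outside SYAT and EG1.

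The same replicate numbers recur in each group, but the labels do not say that a number marks a shared day or batch. Deviations of same-numbered exon libraries correlated over genes at 0.07 in CGR8, -0.04 to 0.59 in the SYAT time course, 0.37 to 0.59 in the sorted cells and 0.26 to 0.38 in the wtSRCAP and cdSRCAP table, with only 2 numbers each, so the numbers were not treated as pairs. With the replicate block in edgeR, 1 member passed at 6 h (Psmg2, lower, -0.58, adjusted p = 0.044), and with the replicate block in DESeq2, chosen after seeing the data, 2 passed at 6 h (Psmb8 and Psmb10, higher) and 1 at 8 h (Psmd10, lower, -0.64, adjusted p = 0.037). The block changed no other count of calls.

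Leaving out 1 library at a time gave 0 to 9 members in CGR8 and 0 to 10 at 6 h in the exon columns, the highest without control replicate 2 and without 6 h replicate 1. In the intron columns it gave 0 to 1 in CGR8 (Psmd6), 0 to 3 at 6 h, 0 to 1 in EG1 and in the difference of the LG1 and EG1 responses (Psma8), and 0 to 1 in wtSRCAP cells (Psma8). Some named log2 fold changes, none of which had passed, took the other sign in these fits, where a condition left with 1 library is assumed to vary like the rest. Such fits also leave the replicate numbers unequal between the conditions compared, and the part of this in the changes of sign was not tested. In SYAT cells the ranges were -0.36 to 0.94 for Psmb8 and -0.092 to 0.53 for Psme2b at 2 h, -0.27 to 0.98 for Psmb9, -0.15 to 1.21 for Psmb8, -0.12 to 0.55 for Psme2b and -0.18 to 0.50 for Psmb10 at 4 h, -0.20 to 0.029 for Psmb7 at 6 h, and -0.21 to 0.71 for Psme2b and -0.10 to 0.60 for Psmb10 at 8 h. In EG1 they were -0.30 to 0.91 for Psmb8, -0.045 to 0.43 for Psma8, -0.39 to 0.11 for Psmf1 and -0.27 to 0.18 for Psmc6. In LG1 they were -0.33 to 0.87 for Psmb10, -0.35 to 0.62 for Psmb8, -0.16 to 0.41 for Psmd3, -0.48 to 0.023 for Psmd10, -0.52 to 0.17 for Psmd9 and -0.46 to 0.058 for Psmg3. LG1 against EG1 gave -0.051 to 0.41 for Psme1, -0.13 to 0.34 for Psmd8, -0.87 to 0.30 for Psmb10, -0.73 to 0.50 for Psmb8 and -0.54 to 0.083 for Psmg4 in control, and -0.15 to 0.41 for Psmf1, -0.023 to 0.21 for Psme4, -0.19 to 0.28 for Psmd1 and -0.77 to 0.13 for Psmb8 after IAA. The difference of those responses gave -0.40 to 0.82 for Psmb10, -0.14 to 0.42 for Psmf1, -0.19 to 0.34 for Psmg2, -0.49 to 0.011 for Psmd10 and -0.53 to 0.17 for Psmd9. In wtSRCAP cells the ranges were -0.74 to 0.053 for Psmd10 and -1.01 to 0.055 for Psmg2, and in cdSRCAP cells -0.11 to 0.83 for Psma3 and -1.53 to 0.060 for Psmd10. For cdSRCAP against wtSRCAP they were -0.084 to 0.52 for Psme2b, -0.90 to 0.037 for Psmb10 and -1.26 to 0.33 for Psmc5 in control, and -0.26 to 0.95 for Psmb9 and -0.60 to 6.66 for Psmb8 after IAA, the last against a library with 0 counts, which is no bound. The difference of those responses gave -0.21 to 1.02 for Psmc6 and -0.20 to 0.84 for Psma3.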
